A study of Mus musculus with 6 samples.

Results

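The genes described here are 34 genes of cholesterol and fatty acid synthesis and of its control, out of 23420 gene symbols counted in the series. They were listed by function, with earlier results of these data known: 7 enzymes from acetyl-CoA to farnesyl pyrophosphate, 11 enzymes from squalene to cholesterol, 5 genes of the sterol sensor, 3 genes of sterol transport and 8 genes of fatty acid synthesis. All 34 symbols were found, Msmo1 under its older symbol Sc4mol, and all 34 passed the filter on low counts. RNA was measured in eEnd2, a line of mouse embryonic endothelial cells, after stable transfection with a human integrin β1A chimera that carries green fluorescent protein (GFP) in its extracellular part. In β1-WT-GFP cells the chimera was wildtype (3 cultures, A, B and C), and in β1-K794Q-GFP cells a lysine of its cytoplasmic tail was replaced by glutamine (K794Q) to mimic acetylation (again 3 cultures named A, B and C). Both groups therefore carry a human transgene, driven by a fragment of the human actin beta promoter, and neither is the untransfected line. No treatment was given, and both groups were grown to confluence in DMEM with fetal calf serum, after sorting of GFP positive cells. The cultures of a group were different cultures of the sorted cells, and nothing in the sources used here says that they came from separate transfections, so an effect of the mutation and a property of the sorted population cannot be told apart. For the same reason the p-values measure only the spread between these cultures.

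Cells make cholesterol from acetyl-CoA through mevalonate, squalene and lanosterol, and they make fatty acids from the same acetyl-CoA through malonyl-CoA. Many of the enzymes of both routes are transcribed under the sterol regulatory element binding proteins (SREBPs), membrane-bound transcription factors that Scap escorts to the Golgi when sterol is scarce and that the Insig proteins hold in the endoplasmic reticulum when sterol is plentiful. Excess sterol is sensed in parallel by the liver X receptors, which raise the transporters Abca1 and Abcg1, and endothelial cells, bathed in lipoproteins in vivo, keep both arms.

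The libraries held 9589826 to 15287191 counts, and the 34 genes took 0.322 to 0.449% of them. A culture with no count for a gene could still hold up to 0.196 to 0.313 CPM, that is counts scaled to the size of the library, the level that 3 counts amount to in the deepest and the shallowest library, and all 34 genes lay above that level in every culture. Cultures of a group were unequally alike. In β1-WT-GFP cells, A and B were apart by at least 2-fold in 0.56% of the 11608 tested genes, whereas β1-WT-GFP culture C differed from them in 23.3% and 21.9%. In β1-K794Q-GFP cells culture B differed from A in 17.2% and from C in 22.1% of genes, against 7.78% between A and C. These shares were taken with 0.5 CPM added to each value. The cells carried endothelial RNA: none of 12 endothelial markers was at 0 in all cultures and none was called different, with summed levels of 6932 to 13154 CPM in β1-K794Q-GFP and 8343 to 9466 CPM in β1-WT-GFP cultures. Single markers varied within a group. In β1-K794Q-GFP cultures A to C, Flt1 had 142, 31.3 and 457 CPM and Cdh5 had 1409, 3994 and 1294 CPM. In β1-WT-GFP cultures A to C, Flt1 had 233, 241 and 351 CPM and Cdh5 had 1338, 1564 and 2227 CPM. Others such as Pecam1 (1779 to 2818 CPM over the 6 cultures) were more even. Cldn5 was uneven, with 267, 252 and 4.74 CPM in β1-WT-GFP and 17.5, 0 and 24.25 CPM in β1-K794Q-GFP cultures A to C. Its log2 fold change was -3.64 (adjusted p = 0.595, edgeR quasi-likelihood test). Cldn5 was called lower with β1-WT-GFP culture C left out, a fit in which 992 of 11844 tested genes were called. Of 10 mesenchymal markers 4 (Dcn, Lum, Twist1 and Thy1) were at 0 throughout and 1 (Prrx1) was called lower, and the list summed to 2.58 to 3.75 CPM in β1-K794Q-GFP and 84.3 to 195 CPM in β1-WT-GFP cultures, mostly Prrx1 in the latter. Without Prrx1 the other mesenchymal markers summed to 3.56, 3.65 and 2.58 CPM in β1-K794Q-GFP cultures A to C and to 0.787, 1.20 and 27.7 CPM in β1-WT-GFP cultures A to C. The part of the Prrx1 difference in the results below was not tested. Of 6 leukocyte markers Tyrobp and Lyz2 were at 0, and the sum, mostly Cd68, was 32.1 to 104.6 CPM in β1-K794Q-GFP and 48.5 to 89.1 CPM in β1-WT-GFP cultures. The 6 epithelial markers (Epcam, Krt18, Krt5 and Krt14 at 0) reached at most 0.592 CPM, and the 7 markers of adipocytes and hepatocytes, the main lipid-making cells of the body, reached at most 0.175 CPM with Adipoq, Cidec and Ttr at 0. In such bulk samples, fewer cells of a type and less RNA per cell cannot be told apart.

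The comparison of β1-K794Q-GFP with β1-WT-GFP cells asks whether the mimic of acetylation goes with altered transcript levels of these genes. One of the 34 genes, Acss2, which turns free acetate into acetyl-CoA, was called higher in β1-K794Q-GFP cells, and 0 were called lower. To be called, a gene had to reach 2-fold with p at or under 0.05 before adjustment in edgeR's quasi-likelihood test, and by this rule 5.19% of all tested genes were called, 3.48% higher and 1.71% lower. An unadjusted p of at most 0.05 alone was met by 2 of the 34 genes, Acss2 and Hmgcs1, and by 10.2% of all tested genes. After Benjamini-Hochberg adjustment over the 11608 genes none of the 34 stayed at or under 0.05, the lowest adjusted p being 0.290 for Acss2, while 0.181% of all genes did. The share of calls among the 34 genes was not above that of all tested genes.

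Most of the fold changes were small and positive. On the log2 scale the change was above 0 in 26 of the 34 genes (76.5%) and in 48.4% of all tested genes, and its median was 0.26 over the 34 genes and -0.02 over all tested genes. Each of the 3 β1-K794Q-GFP cultures lay above each of the 3 β1-WT-GFP cultures in 8 genes (Hmgcs1, Lss, Tm7sf2, Scap, Insig1, Stard4, Abca1 and Acss2), where 8.45% of all tested genes did so. In 0 genes did every β1-K794Q-GFP culture lie below, the pattern of 8.12% of all tested genes, and the groups overlapped in the other 26. For 20 of the 34 genes (58.8%) the 95% interval of the fold change lay within 2-fold in both directions, against 48.0% of all tested genes. A change of 2-fold was therefore outside the interval of these 20 genes, and within that of the others it was not resolved by 3 cultures a group.

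The single cultures were not alike in this shift. Relative to the β1-WT-GFP mean, the median log2 ratio of the 34 genes was 0.38 in β1-K794Q-GFP culture A, 0.32 in culture B and 0.07 in culture C, and it was -0.07, 0.09 and -0.03 in the β1-WT-GFP group (cultures A, B and C in this order). Culture C of the β1-K794Q-GFP cells thus lay within the range of the β1-WT-GFP cultures, and cultures A and B lay above it. In the β1-WT-GFP group itself, culture B had 26 of the 34 genes above the group mean, as many as β1-K794Q-GFP culture A.

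**Figure D1:**
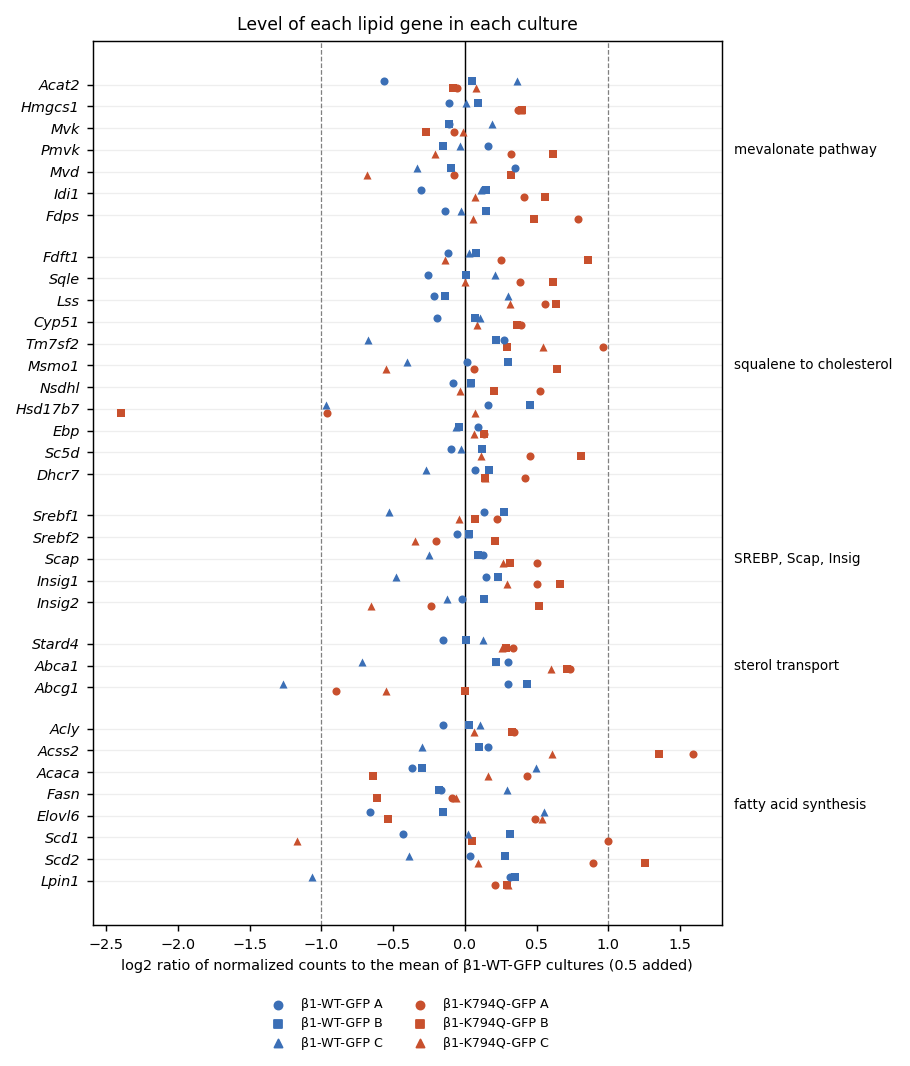
Log2 ratio of each of the 34 genes to its β1-WT-GFP mean (0.5 normalized counts added) in each of the 6 cultures, with genes in rows by role, colour for the group, symbols for the culture and dashed lines at 2-fold. β1-K794Q-GFP cultures A and B have more genes above the mean than culture C (26, 27 and 22 of 34). On this scale, cultures of a group are at least 2-fold apart in Mvd, Msmo1, Hsd17b7, Insig2, Abca1, Abcg1, Acaca, Elovl6, Scd1, Scd2 and Lpin1. Without the 0.5 added, Acss2 and Fdft1 (β1-K794Q-GFP cultures) and Tm7sf2 (β1-WT-GFP cultures) are at least 2-fold apart as well.

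Promoter sequence is shown for 4 genes: Acss2, the gene called, and Hmgcs1, Insig1 and Abca1, in which the groups did not overlap and which stand for synthesis, sensing and export. The RefSeq table (GRCm38.p6) held a promoter for 27 of the 34 genes, with Fdps, Fdft1, Sqle, Stard4, Abcg1, Scd1 and Scd2 not matched. The 250 bases upstream of each start were searched on both strands for TCACNCCAC, a core of the sterol regulatory elements, for CCAAT, the box bound by NF-Y, and for CACGTG, an E-box. Capitals mark the matches, and ATTGG is CCAAT read on the other strand. Each sequence is given 5′ to 3′ in the direction of transcription.
Acss2, chr2:155517793-155518042, plus strand: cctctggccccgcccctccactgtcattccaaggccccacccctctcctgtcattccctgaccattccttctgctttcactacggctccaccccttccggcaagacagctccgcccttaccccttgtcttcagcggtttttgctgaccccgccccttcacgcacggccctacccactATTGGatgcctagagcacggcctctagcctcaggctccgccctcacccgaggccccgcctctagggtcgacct
Hmgcs1, chr13:119690101-119690350, plus strand: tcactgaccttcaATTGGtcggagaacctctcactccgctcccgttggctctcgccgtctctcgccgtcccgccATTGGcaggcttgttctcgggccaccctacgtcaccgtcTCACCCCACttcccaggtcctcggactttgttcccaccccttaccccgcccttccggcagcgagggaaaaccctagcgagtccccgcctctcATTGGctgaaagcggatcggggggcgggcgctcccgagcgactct
Insig1, chr5:28071162-28071411, plus strand: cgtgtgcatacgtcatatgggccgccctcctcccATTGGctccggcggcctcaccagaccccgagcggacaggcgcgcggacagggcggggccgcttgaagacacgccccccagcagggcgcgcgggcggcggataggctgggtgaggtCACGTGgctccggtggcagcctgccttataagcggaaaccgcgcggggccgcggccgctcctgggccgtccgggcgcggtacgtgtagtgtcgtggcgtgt
Abca1, chr4:53159896-53160145, minus strand: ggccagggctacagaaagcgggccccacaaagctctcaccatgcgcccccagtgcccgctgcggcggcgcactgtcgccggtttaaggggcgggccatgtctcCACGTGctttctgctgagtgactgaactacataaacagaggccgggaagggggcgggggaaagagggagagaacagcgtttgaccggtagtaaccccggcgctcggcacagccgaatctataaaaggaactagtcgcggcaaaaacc

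The Hmgcs1 promoter held TCACNCCAC, 137 bases before the start, and 3 copies of CCAAT on the opposite strand. Hmgcs1 was the only one of the 27 genes with TCACNCCAC (3.7%), a run of letters found in 1.22% of the 27025 genes with a listed promoter. Some genes have several listed promoters, and a gene was counted where any of them matched. CCAAT was found in 20 of the 27 (74.1%) and in 37.5% of all genes, among them Acss2, 73 bases before the start on the opposite strand, and Insig1. CACGTG was found in 6 of the 27 (22.2%: Hsd17b7, Sc5d, Dhcr7, Scap, Insig1 and Abca1) and in 6.86% of all genes. These are matches of letters in a window and were not tested as binding sites.

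Among the 7 genes of the mevalonate pathway, 0 were called, and the median log2 fold change was 0.29. Hmgcs1, which condenses acetoacetyl-CoA with acetyl-CoA to HMG-CoA, had 165, 189.5 and 179 normalized counts (CPM after scaling by trimmed mean of M-values, TMM) in the β1-WT-GFP group and 230.0, 235 and 234 in the β1-K794Q-GFP group, each group given in the order A, B, C here and in what follows. The groups did not overlap, and the β1-K794Q-GFP cultures lay close together. Means were 178 ± 12.5 in β1-WT-GFP and 233 ± 2.45 in β1-K794Q-GFP cells (SD, n = 3 each), a fold of 1.31 with a 95% interval of 1.01 to 1.70. The log2 fold change was 0.39 (unadjusted p = 0.0452, adjusted p = 0.473, SE 0.16), with SE the standard error, under the 2-fold limit, and between 0.33 and 0.43 with each culture left out, when the unadjusted p rose above 0.05 in 5 of 6 fits (up to 0.155). Fdps makes farnesyl pyrophosphate, the branch point to sterols and to prenylated proteins. It had 31.2, 38.2 and 33.8 normalized counts in the β1-WT-GFP and 59.8, 48.3 and 35.9 in the β1-K794Q-GFP cultures, with culture C of the latter inside the range of the former. The fold was 1.39 (95% interval 0.949 to 2.05), with a log2 fold change of 0.48 (adjusted p = 0.575, SE 0.23). The exons of Fdps overlap those of Gm43738, a protein-coding gene on the same strand that was not among the counted symbols.

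The remaining enzymes of this route had log2 fold changes between -0.12 and 0.38, and in each of them the groups overlapped. Idi1, the isopentenyl pyrophosphate isomerase, had 9.36, 13.0 and 12.7 normalized counts in the β1-WT-GFP and 15.7, 17.5 and 12.3 in the β1-K794Q-GFP cultures (log2 fold change 0.38). Pmvk, the second kinase of the route, had 10.9, 8.70 and 9.47 against 12.2, 15.1 and 8.34 (log2 fold change 0.29). In both genes β1-K794Q-GFP cultures A and B lay above all β1-WT-GFP cultures and culture C did not. Acat2, the cytosolic thiolase that starts the route, had 18.8, 29.0 and 36.1 normalized counts in the β1-WT-GFP and 27.0, 26.4 and 29.6 in the β1-K794Q-GFP cultures. Its log2 fold change was -0.02 (SE 0.27) and moved between -0.24 without β1-WT-GFP culture A and 0.22 without β1-WT-GFP culture C. The mevalonate kinase gene Mvk varied little, with 14.0, 14.0 and 17.3 against 14.3, 12.4 and 15.0 normalized counts, and its fold of 0.921 had an interval of 0.648 to 1.31. Mvd, the decarboxylase, had 20.2, 14.7 and 12.4 against 14.9, 19.8 and 9.63 normalized counts, and its log2 fold change of -0.09 (SE 0.34) went from -0.35 without β1-K794Q-GFP culture B to 0.14 without culture C.

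Of the 11 genes from squalene to cholesterol, 10 had a log2 fold change above 0 and 0 were called, with a median of 0.29. Lss, the cyclase that closes the rings to give lanosterol, had 19.1, 20.1 and 27.4 normalized counts in the β1-WT-GFP and 32.9, 34.7 and 27.8 in the β1-K794Q-GFP cultures. The groups did not overlap but came close: culture C was the highest of the β1-WT-GFP and the lowest of the β1-K794Q-GFP cultures. Means were 22.2 ± 4.56 and 31.8 ± 3.61 (SD, n = 3 each). The fold was 1.43 (95% interval 0.995 to 2.06), with a log2 fold change of 0.52 (adjusted p = 0.497, SE 0.22) that was 0.42 to 0.71 with a culture left out. Lss lies on chromosome 10 (GRCm38, 76531588 to 76557138), where the 24 tested genes nearest to it had a median log2 fold change of 0.63, larger than its own. Whether the value of Lss is separate from that of its region was not tested.

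Sc5d, the lathosterol desaturase, had 40.5, 47.1 and 42.6 normalized counts in the β1-WT-GFP and 59.7, 76.6 and 47.0 in the β1-K794Q-GFP cultures. Only β1-K794Q-GFP culture C fell within the β1-WT-GFP range, just under culture B. The fold was 1.41 (95% interval 0.981 to 2.02), with a log2 fold change of 0.49 (adjusted p = 0.521, SE 0.22). The squalene steps had the same order of β1-K794Q-GFP cultures, B over A over C. Fdft1, squalene synthase, had 41.6, 47.7 and 46.0 against 53.8, 82.2 and 41.0 normalized counts (log2 fold change 0.39), and Sqle, the squalene epoxidase that limits the later route, had 61.2, 73.9 and 85.1 against 96.0, 113 and 73.6 (log2 fold change 0.36). In both, β1-K794Q-GFP culture B was the highest of the 6 cultures and culture C lay below at least one β1-WT-GFP culture. The exons of Fdft1 overlap those of Ctsb, which had 1812 normalized counts in β1-K794Q-GFP culture B and 430.5 to 836 in the other 5 cultures, and since the strand setting of the counting is not given in the sources used here, reads of the pair may not be separable.

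Cyp51, the lanosterol demethylase, had 67.1, 80.7 and 82.7 normalized counts in the β1-WT-GFP and 101, 99.2 and 81.3 in the β1-K794Q-GFP cultures, a log2 fold change of 0.29, and its exons overlap those of Akap9, which was not called. Nsdhl, an X-linked sterol dehydrogenase, had 21.8, 23.9 and 23.7 against 33.4, 26.6 and 22.6 (log2 fold change 0.25). Dhcr7, which reduces the last precursor to cholesterol, had 21.3, 22.9 and 16.8 against 27.3, 22.5 and 22.5 (log2 fold change 0.25). In these genes the groups overlapped, with β1-K794Q-GFP culture A the highest of all 6 cultures in each. Ebp, the sterol isomerase, was the most even, with 21.3, 19.4 and 19.1 against 21.9, 21.9 and 20.8 normalized counts and a fold of 1.08 (95% interval 0.813 to 1.44). Msmo1, the methylsterol oxidase, had 69.0, 84.3 and 51.5 against 71.2, 107 and 46.5, and its log2 fold change of 0.13 (SE 0.34) was -0.21 with β1-K794Q-GFP culture B left out and 0.38 without culture C. Tm7sf2, a sterol reductase, was low, with 2.62, 2.50 and 1.11 normalized counts against 4.53, 2.66 and 3.27, from 16 to 47 raw counts a library. Its groups did not overlap, and its log2 fold change was 0.75 (SE 0.47). The exons of Tm7sf2 overlap those of Vps51, on the same strand, which had 236 to 377 raw counts a library and was not called. Reads of this pair may not be separable.

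Hsd17b7, which reduces the sterol ketone in the removal of the methyl groups, was the exception in this group, with the lowest log2 fold change of the 34 genes and the widest spread. It had 214, 263 and 97.9 normalized counts in the β1-WT-GFP group and 98.0, 36.0 and 201 in the β1-K794Q-GFP group. The groups overlapped over most of their range, and every pair of β1-K794Q-GFP cultures differed by at least 2-fold. The fold of 0.583 had an interval of 0.195 to 1.74, and the log2 fold change of -0.78 (adjusted p = 0.789, SE 0.65) was -1.51 without β1-K794Q-GFP culture C and -0.35 without culture B. Hsd17b7 lies on distal chromosome 1 (169949535 to 169969241), where the 24 nearest tested genes had a median log2 fold change of -0.50.

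**Figure D2:**
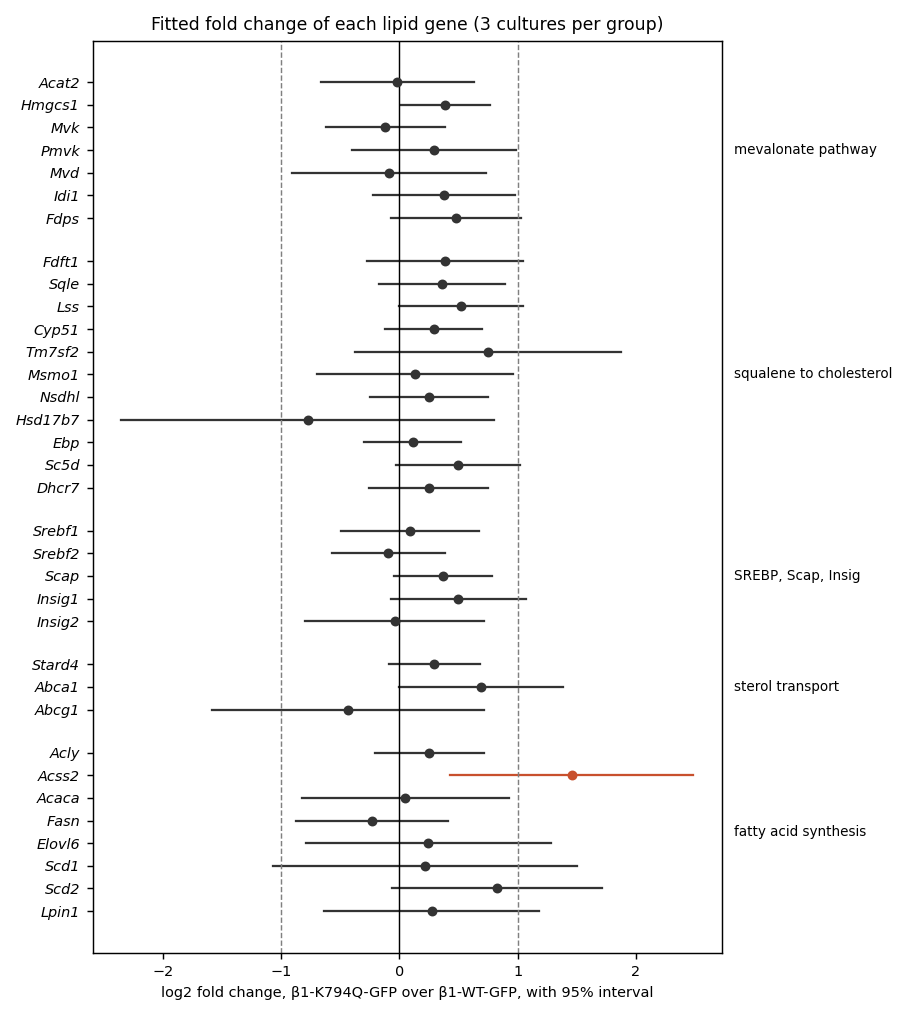
Fitted log2 fold change of each of the 34 genes in β1-K794Q-GFP over β1-WT-GFP cells (3 cultures each) with its 95% interval, by role, and dashed lines at a 2-fold change. The interval of Acss2 lies above 0 and that of Hmgcs1 barely so, while Hsd17b7 and Acss2 mark the lower and upper ends of -0.78 and 1.46.

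The 5 genes of the sterol sensor gave 0 calls and a median log2 fold change of 0.09. For the genes of the transcription factors themselves the groups overlapped. Srebf1, which encodes both SREBP-1a and SREBP-1c, forms that a count per gene does not separate, had 85.6, 94.3 and 53.8 normalized counts in the β1-WT-GFP and 91.0, 81.8 and 75.8 in the β1-K794Q-GFP cultures. Its fold was 1.06 (95% interval 0.711 to 1.59), and its log2 fold change of 0.09 was -0.11 without β1-WT-GFP culture C. Its exons overlap those of Rai1, which was not called. Srebf2, whose product acts mainly on the cholesterol genes, had 182, 192 and 191 against 164, 218 and 148 normalized counts, a fold of 0.937 (95% interval 0.672 to 1.31). β1-K794Q-GFP cells thus spanned the β1-WT-GFP values on both sides for Srebf2. SREBPs are switched on by cleavage, which a transcript level does not measure.

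Scap, the escort of the SREBPs, had 60.5, 59.0 and 46.5 normalized counts in the β1-WT-GFP and 78.6, 68.9 and 66.7 in the β1-K794Q-GFP cultures. All β1-K794Q-GFP cultures lay above all β1-WT-GFP cultures, with means of 71.4 ± 6.30 and 55.3 ± 7.68 (SD, n = 3 each). On the log2 scale the change was 0.37 (adjusted p = 0.565, SE 0.17), a fold of 1.29 (95% interval 0.968 to 1.72). Insig1, the retention protein whose gene is itself an SREBP target, had 98.2, 104 and 63.1 normalized counts in the β1-WT-GFP and 125, 140.2 and 109 in the β1-K794Q-GFP cultures. The groups did not overlap, with 88.4 ± 22.1 and 125 ± 15.8 normalized counts (SD, n = 3 each). The fitted log2 change was 0.50 (adjusted p = 0.571, SE 0.24), a fold of 1.41 (95% interval 0.949 to 2.10). It was 0.32 without β1-WT-GFP culture C, the lowest of the 6. Insig2, its paralog, had 54.1, 60.2 and 50.3 against 46.6, 78.9 and 34.7 normalized counts. The 3 β1-K794Q-GFP values lay around those of β1-WT-GFP cells, and the log2 fold change of -0.04 (SE 0.31) moved from -0.43 without β1-K794Q-GFP culture B to 0.19 without culture C. The tested genes nearest to Insig2 on chromosome 1 had a median of -0.39.

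The transport genes pointed different ways, and 0 of 3 were called. Abca1, which loads cholesterol onto apolipoprotein A-I, had 53.0, 50.1 and 26.0 normalized counts in the β1-WT-GFP and 72.0, 70.9 and 65.6 in the β1-K794Q-GFP cultures. All β1-K794Q-GFP cultures lay above all β1-WT-GFP cultures, among which culture C had the lowest value. Means were 43.0 ± 14.8 and 69.5 ± 3.41 (SD, n = 3 each), a fold of 1.62 with a 95% interval of 1.00 to 2.61. On the log2 scale the change was 0.69 (unadjusted p = 0.0501, adjusted p = 0.491, SE 0.29), and 0.44 without β1-WT-GFP culture C. Abcg1, the partner transporter that exports cholesterol to larger lipoproteins, had 246, 270.4 and 82.5 against 107, 199.6 and 137 normalized counts. Here β1-WT-GFP culture C was the lowest of the 6 and the other two β1-WT-GFP cultures were the highest. The fold of 0.739 had an interval of 0.332 to 1.65, and the log2 fold change of -0.44 (adjusted p = 0.855, SE 0.48) was -0.80 without β1-WT-GFP culture C. With β1-K794Q-GFP culture B left out as well, leaving 2 cultures a group, it was -1.07 and Abcg1 was called lower. The cultures left out there differed most from the rest of their groups, so their removal lowers the spread. In that fit 1661 of 11721 tested genes were called. The transporters, both targets of the liver X receptors, thus had fold changes of opposite sign, and the difference between them was not tested. Stard4, a carrier of sterol between membranes, had 151, 169 and 183 normalized counts in the β1-WT-GFP and 212, 205 and 201 in the β1-K794Q-GFP cultures. The groups did not overlap, and the fold was 1.23 (95% interval 0.939 to 1.61), with a log2 fold change of 0.30 (adjusted p = 0.634, SE 0.16).

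**Figure D3:**
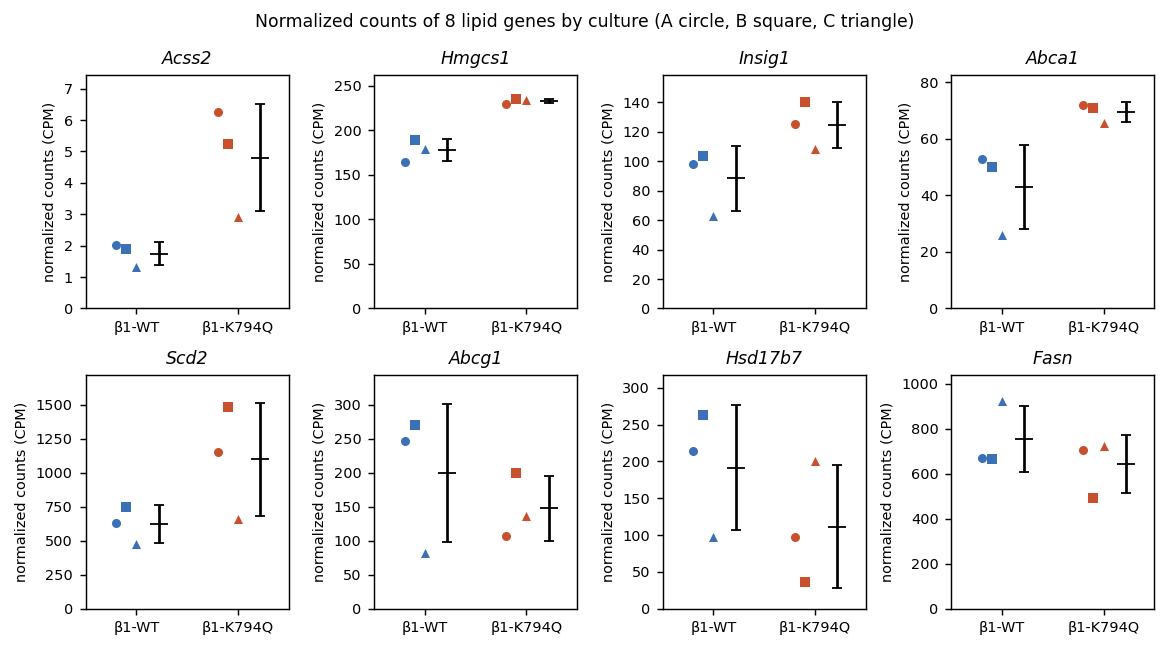
Normalized counts (CPM, linear axes from 0) of 8 of the genes in each culture (A circle, B square, C triangle) of β1-WT-GFP and β1-K794Q-GFP cells, with mean and SD. The groups are apart in Acss2, Hmgcs1, Insig1 and Abca1 and overlap in Scd2, Abcg1, Hsd17b7 and Fasn.

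Of the 8 genes of fatty acid synthesis, 7 had a log2 fold change above 0 and 1, Acss2, was called. Acss2 makes acetyl-CoA from acetate in cytosol and nucleus and so feeds lipid synthesis and histone acetylation alike. It had 2.01, 1.90 and 1.32 normalized counts in the β1-WT-GFP group and 6.26, 5.23 and 2.92 in the β1-K794Q-GFP group. The groups did not overlap, though β1-K794Q-GFP culture C was nearer to the β1-WT-GFP cultures than to β1-K794Q-GFP culture A. Means were 1.74 ± 0.369 and 4.80 ± 1.71 (SD, n = 3 each), a fold of 2.75 with a 95% interval of 1.35 to 5.60. The log2 fold change was 1.46 (unadjusted p = 0.0128, adjusted p = 0.290, SE 0.42). With 1 culture omitted at a time the call held in 5 of 6 fits and was lost without β1-K794Q-GFP culture A, where the log2 fold change was 1.22. The levels rest on few reads, 19 to 65 raw counts a library. Its exons overlap those of Gss, which had 7.87, 7.70 and 18.7 normalized counts in the β1-WT-GFP and 12.4, 13.4 and 11.0 in the β1-K794Q-GFP cultures and was not called, and those of Ggt7 and the antisense gene Acss2os (4930471I20Rik in the count table), both at 0 in all cultures. The 24 tested genes nearest to Acss2 on chromosome 2 (155517948 to 155585724) had a median log2 fold change close to 0 (-0.0001).

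Scd2, the stearoyl-CoA desaturase isoform typical of embryonic and neural tissue, was the most abundant of the 34 genes per length. It had 634, 751 and 473 normalized counts in the β1-WT-GFP and 1152, 1482 and 659.7 in the β1-K794Q-GFP cultures. Cultures A and B of the β1-K794Q-GFP cells lay above all β1-WT-GFP cultures, and culture C lay above A and below B of the β1-WT-GFP cells. Means were 620.0 ± 140 and 1098 ± 414 (SD, n = 3 each), and the fold was 1.77 (95% interval 0.959 to 3.27). On the log2 scale the change of 0.83 (adjusted p = 0.526, SE 0.37) missed the thresholds and passed them, at 1.09, without β1-K794Q-GFP culture C. Scd1, its neighbour on chromosome 19 and the main isoform of liver and fat, had 31.7, 53.3 and 43.5 against 85.9, 44.4 and 18.7 normalized counts. The β1-K794Q-GFP values enclosed those of β1-WT-GFP cells, and the log2 fold change of 0.21 (SE 0.53) moved from -0.44 without β1-K794Q-GFP culture A to 0.61 without culture C.

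The enzymes between citrate and palmitate overlapped between the groups. Acly, which splits citrate into cytosolic acetyl-CoA, had 298, 339 and 357 normalized counts in the β1-WT-GFP and 421, 416 and 346 in the β1-K794Q-GFP cultures (fold 1.19, 95% interval 0.864 to 1.64). Acaca, the acetyl-CoA carboxylase that commits acetyl-CoA to fatty acids, had 49.7, 52.3 and 91.0 against 86.9, 41.1 and 71.9, a log2 fold change of 0.05 (SE 0.36). Fasn, the fatty acid synthase, had 671, 666 and 924 against 708, 493 and 724, and its log2 fold change of -0.23 (adjusted p = 0.864, SE 0.27) was the only one below 0 among these 8 genes. Both the carboxylase and the synthase were highest in β1-WT-GFP culture C and lowest in β1-K794Q-GFP culture B. Elovl6, which lengthens palmitate to stearate, had 12.0, 17.3 and 28.5 against 27.2, 13.1 and 28.1 normalized counts (log2 fold change 0.24, SE 0.43), again with β1-WT-GFP culture C highest. Lpin1, a phosphatidate phosphatase on the way to triglycerides, had 57.6, 59.0 and 21.8 against 53.5, 56.6 and 57.0, so that 5 cultures lay close together and β1-WT-GFP culture C was apart. Its log2 fold change of 0.27 (SE 0.38) was -0.05 without that culture.

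**Figure D4:**
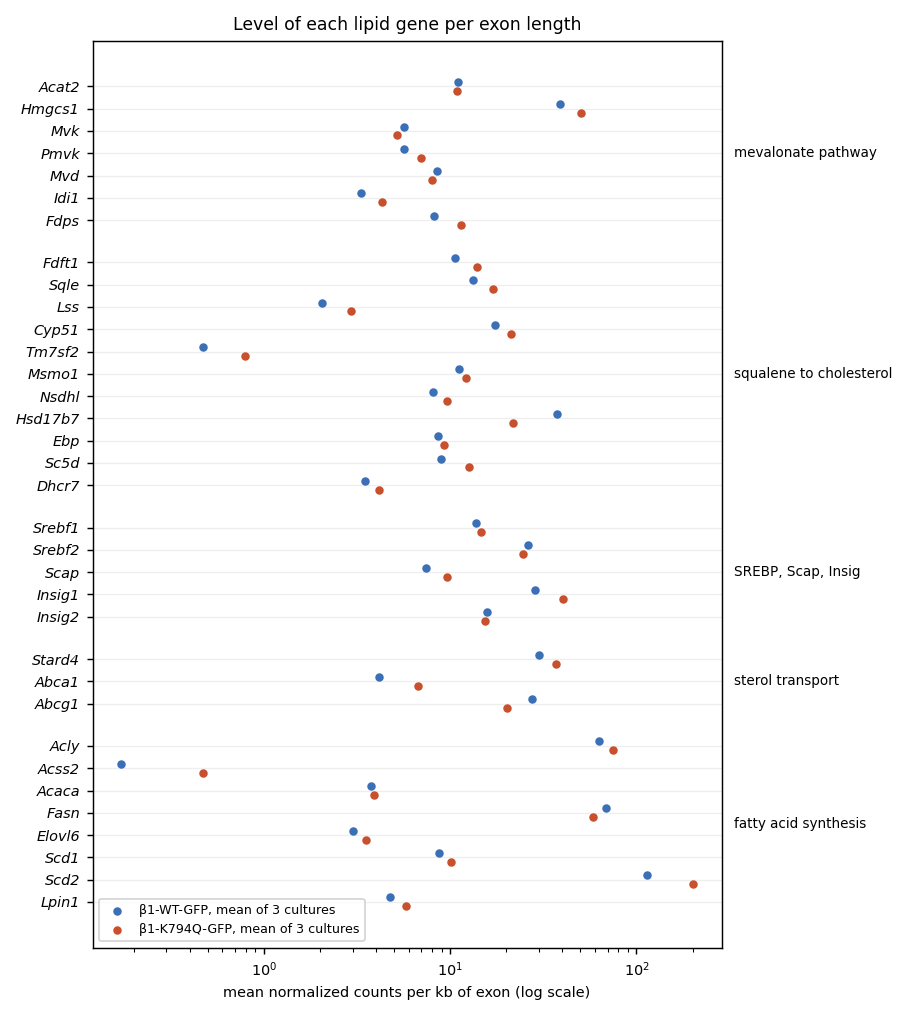
Mean normalized counts per kilobase of exon of the 34 genes in β1-WT-GFP and β1-K794Q-GFP cells on a log axis, by role. Scd2 is the highest in both groups and Acss2 the lowest, and Tm7sf2 the second lowest.

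Levels per length set the fold changes in proportion. Divided by the exon length in kilobases, Scd2 had 113 normalized counts in the β1-WT-GFP and 201 in β1-K794Q-GFP cells, Fasn 68.8 and 58.6, and Acly 62.8 and 74.7. The sterol side followed, led by Hmgcs1 with 38.7 and 50.7 normalized counts per kilobase. Among the sterol enzymes Lss was low, with 2.06 and 2.95. Acss2 stood at the bottom, with 0.172 and 0.473 normalized counts per kilobase, next to Tm7sf2 with 0.472 and 0.792. Thus the gene with the largest fold change was the least abundant of the 34, and Acly, the other source of cytosolic acetyl-CoA, was far above it per length in both groups.

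**Figure D5:**
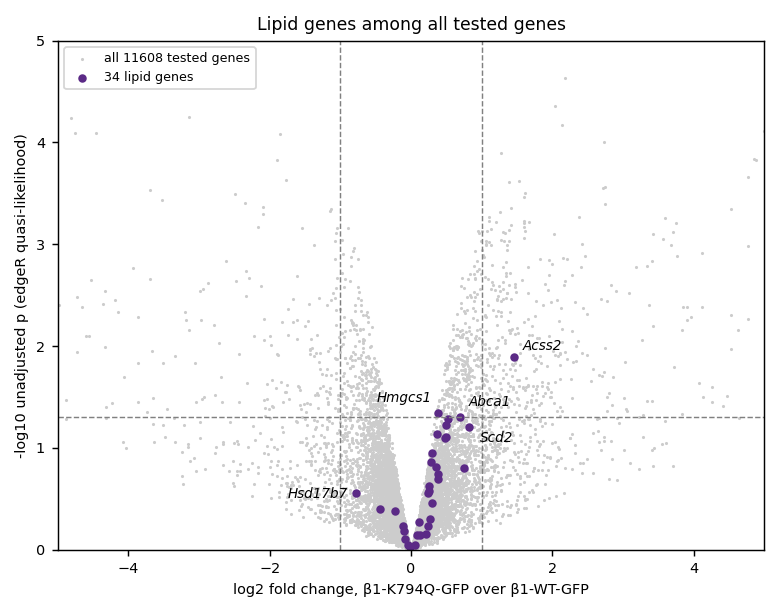
Log2 fold change of β1-K794Q-GFP over β1-WT-GFP cells against -log10 of the unadjusted p for all 11608 tested genes (grey; 66 lie outside the axes) and the 34 genes (purple), with dashed lines at the 2-fold and p thresholds. Acss2 is the only purple point past both lines.

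Other genes of both pathways, taken from lists of 28 sterol and 25 fatty acid genes chosen by function, were read from the same fit, and 0 of them had an adjusted p at or under 0.05. Of 26 tested sterol genes (Nr1h3 and Cyp27a1 were under the filter) 1 was called higher and 0 lower, with a median log2 fold change of -0.04. Of all tested genes 3.48% were called higher and 1.71% lower. Lipa, the lysosomal acid lipase that frees cholesterol and fatty acids from ingested lipoproteins, had 79.5, 117 and 210.4 normalized counts in the β1-WT-GFP and 287, 212 and 322 in the β1-K794Q-GFP cultures. The groups did not overlap, but β1-K794Q-GFP culture B and β1-WT-GFP culture C were nearly level. Its log2 fold change was 1.01 (adjusted p = 0.440, SE 0.39), and with 1 culture omitted at a time it was called in 2 of 6 fits. An unadjusted p of at most 0.05 was reached by 3 of the 26 genes and by 10.2% of all tested genes. The 3 are named here after their values were seen: Lipa, Npc2 (log2 fold change -0.55), which carries cholesterol out of lysosomes, and Soat1 (-0.82), which esterifies it. For Soat1 the nearest tested genes on its chromosome had a median of -0.46.

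Of 24 tested fatty acid genes (Dgat2 was under the filter) 1 was called higher and 0 lower, with a median log2 fold change of 0.11. The shares of all tested genes were again 3.48% and 1.71%. Mid1ip1, whose product promotes the polymer of acetyl-CoA carboxylase, had 34.6, 31.1 and 41.2 normalized counts in the β1-WT-GFP and 77.4, 149 and 37.6 in the β1-K794Q-GFP cultures. Its groups overlapped through culture C, and the log2 fold change of 1.30 (adjusted p = 0.419, SE 0.48) was called in 1 of 6 fits with a culture omitted. An unadjusted p of at most 0.05 was reached by 5 of the 24 genes, again named after their values were seen, and by 10.2% of all tested genes. The desaturases of polyunsaturated fatty acids were among them: Fads1 had 84.9, 98.7 and 104 normalized counts in the β1-WT-GFP and 139, 144 and 140.1 in the β1-K794Q-GFP cultures, and Fads2 had 27.6, 30.7 and 23.6 against 47.1, 44.7 and 49.4. In both genes the groups were apart and the cultures of each group close together. The log2 fold change was 0.55 for Fads1 (adjusted p = 0.269, SE 0.15) and 0.79 for Fads2 (adjusted p = 0.168, SE 0.17), both under 2-fold. Acsl1, which activates long-chain fatty acids, had a log2 fold change of 0.88 (adjusted p = 0.295). Agpat3, an acyltransferase of phospholipid synthesis, had one of 0.78 (adjusted p = 0.232), where its nearest tested genes had a median of 0.61. Mid1ip1 was the fifth.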

How the data were processed

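RNA of 3 cultures of β1-K794Q-GFP and 3 of β1-WT-GFP eEnd2 cells was sequenced after ribosomal RNA depletion. The authors deposited raw counts of reads per gene symbol, and per the submitters' processing notes bcl2fastq 2.20.0, STAR 2.7.4a, HTSeq 0.9.1 and edgeR 3.38.4 were used with build mm10. The annotation and the strand setting of the counting are not given in the sources used here. Groups were taken from the transfection label. Counts were fitted over all genes with edgeR 4.0.16 in R 4.3.3 (filterByExpr, TMM, quasi-likelihood F-test, two-sided), which left 11608 genes, and p-values were adjusted by Benjamini-Hochberg over these. Genes were called at 2-fold or more with p at or under 0.05 before adjustment, which are the limits in the study's methods. The standard error is the log2 fold change divided by the square root of F, and 95% intervals use the degrees of freedom of the fit. Normalized counts are CPM with TMM factors, where TMM is the trimmed mean of M-values. Exon lengths and positions came from GENCODE M21 (GRCm38), and 24 neighbours are the nearest tested genes, 12 on each side where the chromosome allows. The exons of Hmgcs1, Idi1, Scap and Elovl6 overlap those of genes on the opposite strand that were not among the counted symbols. Lss and Scd2 overlap 4930483K19Rik and Mir5114, both at 0 in all cultures. The code of the fit was run on simulated counts with the same dispersion for every gene. Those counts lack the unequal likeness of these cultures, so that run does not show how the fit performs on them.

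Totals of 9589826 to 15287191 counts set the precision, and limits from 3 counts cover counting error only. The members and lists were chosen with earlier results of these data known. Every member was described by role with its normalized counts in each culture. A standard error or interval was given for members past both thresholds, the 2 of smallest p in each role and those whose call or sign changed without 1 culture. The adjusted p was given for members past both thresholds and the 2 of smallest p in each role, and the unadjusted p only for some. Other pathway genes were named where past both thresholds, and further ones after their values were seen, which is said where they stand. Alternatives were no filter, at least 10 counts in every culture, RLE size factors, DESeq2 1.42.0, a block for the culture letter, each culture left out, and β1-WT-GFP culture C with β1-K794Q-GFP culture B left out.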

Additional observations from a re-analysis of the deposited data

How the results depend on the processing

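With no filter on low counts, at least 10 counts in every culture, RLE size factors or DESeq2, all 34 genes kept the direction of their fold change and whether they were called. The unadjusted p alone crossed 0.05 for Hmgcs1 (0.0749 with no filter), Abca1 (0.0451 to 0.0479 in these 4 settings), Lss (0.0499 with at least 10 counts) and Scd2 (0.0332 in DESeq2), while the count of all genes called was 603 in the fit reported and 916, 425, 605 and 887 in these. With each culture left out, the number of the 34 genes called higher ranged from 0 (without β1-K794Q-GFP culture A, where Acss2 was lost) to 2 (without β1-K794Q-GFP culture C, where Scd2 was gained), the median log2 fold change of the 34 from 0.22 to 0.38, and all genes called from 501 to 992 (without β1-WT-GFP culture C). Directions turned for Acat2 (-0.24 to 0.22), Mvk (-0.17 to 0.0038), Mvd (-0.35 to 0.14), Msmo1 (-0.21 to 0.38), Srebf1 (-0.11 to 0.25), Srebf2 (-0.27 to 0.0196), Insig2 (-0.43 to 0.19), Acaca (-0.19 to 0.40), Elovl6 (-0.0078 to 0.65), Scd1 (-0.44 to 0.61) and Lpin1 (-0.0546 to 0.49). With β1-WT-GFP culture C and β1-K794Q-GFP culture B both left out, 1661 of 11721 tested genes were called. Of the 34, 1 was called higher (Acss2) and 1 lower (Abcg1, log2 fold change -1.07, adjusted p = 0.0220 in edgeR). An adjusted p at or under 0.05 was reached by 3 of the 34 (Abcg1, Acaca at 0.66 and Elovl6 at 0.94). How many of all genes reached it in that fit was not counted, so these 3 are not set against a background. That fit rests on 2 cultures a group, of which β1-WT-GFP A and B are the closest pair of the series. The cultures left out are those that differed most from the rest of their groups in these same data. Their removal lowers the spread within groups, so the calls of that fit are not independent support. In it the direction turned for Acat2 (0.26), Mvk (0.0825), Msmo1 (-0.36), Srebf1 (-0.0924), Fasn (0.11) and Lpin1 (-0.0611), and the cause was not tested. Whether the culture letters pair the samples was not settled: deviations of same-letter cultures correlated weakly, at 0.0947, 0.0548 and 0.0952 (A, B and C). β1-K794Q-GFP cultures B and C correlated best with the β1-WT-GFP culture of their own letter, and culture A with β1-WT-GFP culture B (0.0954). With the letter as a replicate block 571 genes were called, 1 of the 34 was called higher, and the direction turned for Acat2 (0.0285) and Scd1 (-0.026). Depth limits Acss2 and Tm7sf2 most.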

Other observations

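Among the other sterol genes, 3 that varied widely between the cultures of a group were picked after their values were seen, and others such as Nr1h2 (45.5 to 73.7 normalized counts over the 6 cultures) and Lpcat3 (35.7 to 57.2) did not vary so. Apoe, the apolipoprotein of cholesterol export, had 308, 258 and 48.3 normalized counts in the β1-WT-GFP and 82.0, 1.09 and 73.7 in the β1-K794Q-GFP cultures (in the order A, B, C). The fitted change was -1.97 on the log2 scale (adjusted p = 0.723, SE 1.32, edgeR), and β1-WT-GFP culture C lay below the 2 higher β1-K794Q-GFP cultures. Ch25h, which makes an oxysterol, had 16.0, 17.9 and 74.2 against 0, 27.2 and 0.172 normalized counts, so that β1-K794Q-GFP cultures A and C were at or near 0 and culture B was within the β1-WT-GFP range (log2 fold change -1.98, adjusted p = 0.814). Without that culture Ch25h was called lower, with a fitted log2 fold change of -8.49 that rests on a group at or near 0. Mylip, a ubiquitin ligase and target of the liver X receptors, had 19.3, 18.0 and 4.74 against 2.89, 22.9 and 3.27 (log2 fold change -0.53, adjusted p = 0.916), again with β1-K794Q-GFP culture B near β1-WT-GFP cultures A and B. Without that culture the log2 fold change of Mylip was -2.17 and Mylip was called lower. In the fit without β1-K794Q-GFP culture B, 942 of 11853 tested genes were called, against 603 of 11608 with all cultures. Culture B differed most from the rest of its group, so leaving it out lowers the spread.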
